A study of Mus musculus with 15 samples.

Results

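Genes known as markers of B cells, neutrophils, erythroid cells and other myeloid cells were followed in regulatory T cells (Treg) sorted from mouse spleen. Such genes are commonly read as a measure of the purity of a sort. The set was a named list of 35 genes out of 19752 measured. It held 9 B cell genes, 10 neutrophil genes, 6 erythroid genes and 10 myeloid genes, and all 35 had a feature on the array that names this gene alone. Where a gene had several such features, the one that was brightest over all arrays stood for it. No measured difference between genotypes entered that choice of feature, but the genes themselves were chosen with earlier results of these data known. Each feature is a transcript cluster of the Affymetrix Mouse Gene 1.0 ST array, which reads a transcript with probes along its exons.

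The 15 arrays came from 6-week-old males and formed 4 genotype groups. N1c_RBPJdel (3 arrays) carried R26N1c/N1c, from which Cre releases the active intracellular domain of Notch1, together with deletion of Rbpj, which encodes the protein through which that domain binds DNA. N1c (4 arrays) carried R26N1c/N1c with intact Rbpj, RBPJdel (4 arrays) carried the deletion alone (RBPJ fl/fl recombined by Cre), and control (4 arrays) had neither change. Arrays are called by group and replicate number, which ran 1, 2 and 3 in N1c_RBPJdel, 1, 2, 4 and 5 in N1c, 1 to 4 in RBPJdel and 2 to 5 in control. The Foxp3EGFPCre allele, which drives Cre and green fluorescent protein in Foxp3-expressing cells, was present in every group, controls included, so no group was free of Cre and the genotype changes were driven in Foxp3-expressing cells. Splenocytes passed through lysis of red cells with ACK buffer. Cells positive for CD3, TCRbeta, CD4 and GFP were sorted, and those stained by DAPI or carrying CD8, B220, CD11b, CD11c or Gr1 were gated out. Each array pooled cells of more than 1 mouse, and p-values measure the spread between such arrays, which may be technical. The sorter was a FACSAria for N1c_RBPJdel and a MoFlo for the other 3 groups. In every comparison of N1c_RBPJdel, genotype and sorter cannot be told apart.

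B cells carry the B cell receptor with its signalling subunits and, once they become plasma cells, secrete antibody. Neutrophils are filled in the bone marrow with granules of antimicrobial proteins and proteases, and their messenger RNAs for these proteins are made mostly in precursors. Erythroid precursors take up iron and make the proteins of the red cell membrane and cytoplasm, and in the mouse they are found in the spleen as well as in the marrow. Monocytes, macrophages and dendritic cells share adaptor proteins, lysosomal enzymes and surface integrins, some of which activated T cells make too.

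The sorted cells carried the Treg label in their own RNA. Foxp3, the factor that defines Treg, lay at 3543 to 4943 in N1c_RBPJdel arrays, 4018 to 4865 in N1c arrays, 4294 to 6248 in RBPJdel arrays and 4761 to 5331 in control arrays. Cd3e, a subunit of the T cell receptor complex, lay at 5123 to 6519 in N1c_RBPJdel arrays, 5393 to 6664 in N1c arrays, 4939 to 6323 in RBPJdel arrays and 4707 to 5946 in control arrays. None of 11 measured T cell and Treg identity genes passed the test in N1c_RBPJdel against control (limma, 1 at an unadjusted p under 0.05), where 3.77% of all genes were higher and 5.12% lower. Against N1c 1 of the 11 rose, Tnfrsf18, which encodes the receptor GITR (0.52). The summed intensity of the 11 was 36179 to 40587 in N1c_RBPJdel arrays, against 37294 to 45068 in the other 12. Rbpj itself lay at 175 to 258 in N1c_RBPJdel arrays, against 489 to 572 in N1c arrays, and at 225 to 294 in RBPJdel arrays, against 470.3 to 571 in control arrays. Intensities are linear values of the deposited table. Changes are differences of mean log2 intensities with the standard error (SE) of limma, and a gene was called where its two-sided p, adjusted by Benjamini-Hochberg over all 19752 genes, was under 0.05.

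Of the 35 marker genes, 13 rose and 1 fell in N1c_RBPJdel against control (limma). Over all genes 3.77% rose and 5.12% fell in that comparison. The 13 were 4 of 9 B cell genes (Jchain, Ms4a1, Cd79a and Cr2), 5 of 10 neutrophil genes (Ngp, S100a9, Mmp8, Mmp9 and Lcn2), 2 of 6 erythroid genes (Car1 and Slc4a1) and 2 of 10 myeloid genes (Fcer1g and Spi1). The gene that fell was Tfrc. The median log2 change was 0.33 over the 35 markers, against 0.02 over all genes. In bulk samples of this kind, a change in the number of cells of a type and a change in RNA per cell cannot be told apart.

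Against N1c, 15 markers rose and 1 fell in N1c_RBPJdel, where 4.58% of all genes rose and 4.65% fell. Ebf1 and Lyz2 were the 2 added to the 13 above, and Tfrc was again the gene that fell. Against RBPJdel, 12 markers rose and none fell, where 1.32% of all genes rose and 0.967% fell. Those 12 were the 13 above without Cr2, and 5 were called without N1c_RBPJdel 1 and 7 without RBPJdel 3. Over all genes 0.385% and 0.4% were called without these arrays, against 2.29% with all arrays. The 3 comparisons share the N1c_RBPJdel arrays. All 3 N1c_RBPJdel arrays lay above the other 12 for 12 of the 35 markers, against 2.35% of all genes. They lay below the other 12 for none of the 35, against 2.47% of all genes.

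**Figure D1:**
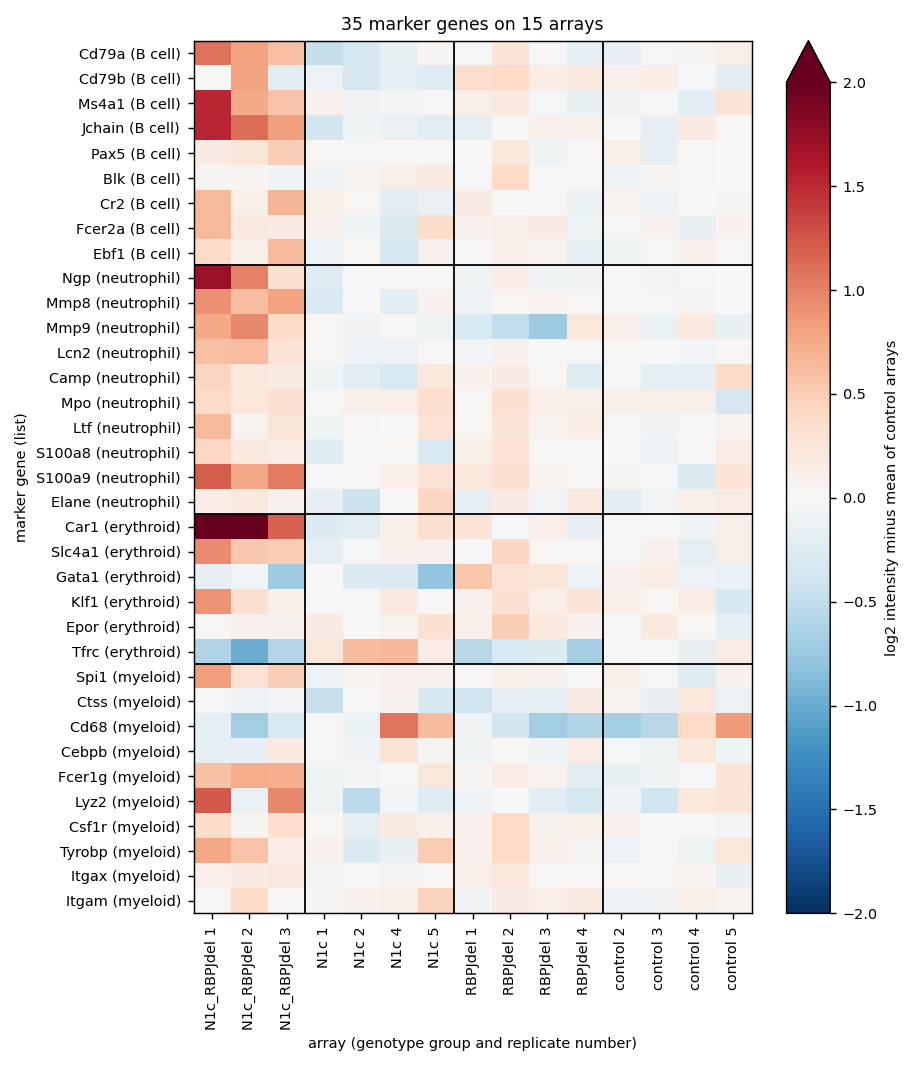
Log2 intensity of each marker gene on each array, minus the mean of the control arrays for that gene. Columns are the 15 arrays by genotype group and replicate number, rows are the 35 markers by list, and colours stop at 2 in both directions, which Car1 exceeds on N1c_RBPJdel 1 and 2. The red cells gather in the 3 N1c_RBPJdel columns, where 12 markers lie above all other arrays, and Tfrc is blue there.

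Most of these markers were dim. The array holds 1015 measured olfactory receptor genes, which spleen T cells are not known to use, and their 95th percentile on each array served as a mark for dim signal. A feature's brightness also depends on its probes, so the mark ranks no gene above another. Of the 35 markers, 16 stayed below the mark on all 15 arrays and 7 lay above it on all 15. The 7 were Cd79b, Mmp9, Slc4a1, Gata1, Tfrc, Ctss and Cd68. On the 12 arrays of the other groups, 21 markers never passed it. S100a9 and Car1 passed it on all 3 N1c_RBPJdel arrays and on 0 of the other 12, whereas Jchain, Cd79a, Ms4a1, Ngp and Mmp8 were higher in N1c_RBPJdel arrays but stayed below it throughout.

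Dim signal itself was higher on 2 of the 3 N1c_RBPJdel arrays. The median of the olfactory receptor genes was 39.1, 27.2 and 32.4 on N1c_RBPJdel arrays 1, 2 and 3, against 24.3 to 30.7 on the other 12. Their median log2 change against control was 0.26, and 122 of the 1015 rose and none fell. All 3 N1c_RBPJdel arrays lay above the other 12 for 6.31% of the olfactory receptor genes, for 3.87% of the 9876 genes dimmer than the median gene, and for 34.3% of the markers. With each array centred on its olfactory receptor median, a setting chosen after the data were seen, 7 of the 35 markers rose against control. These were Car1 (2.26), Jchain (0.84), Ngp (0.70), S100a9 (0.68), Ms4a1 (0.63), Cd79a (0.51) and Mmp8 (0.46). Under that centring the median over all genes moved to -0.30, so these values stand against a whole that lies lower. Tfrc fell under it as well, by 1.05, and Gata1 fell by 0.63. In all, 9 of the 35 markers were called under this centring, where 22.6% of all genes were called in either direction.

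**Figure D2:**
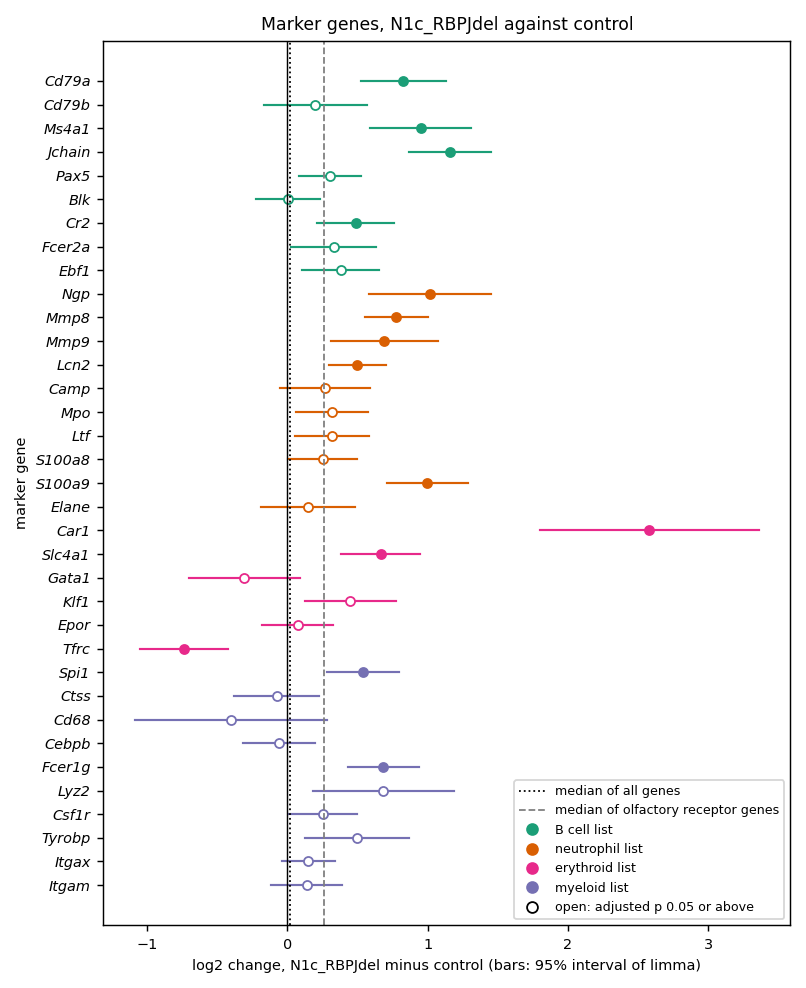
Log2 change of each marker gene in N1c_RBPJdel against control, with the 95% interval of limma. Filled points passed the test and open points did not. The dotted line is the median of all genes (0.02) and the dashed line that of olfactory receptor genes (0.26). Car1 stands at 2.58 and Tfrc at -0.73, and most other points lie between 0 and 1.16.

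Among the B cell genes, Jchain, Ms4a1, Cd79a and Cr2 rose in N1c_RBPJdel against control, and the other 5 did not pass the test. Jchain, the joining chain of polymeric antibody and a plasma cell product, had intensities of 72.5, 54.5 and 44.7 in N1c_RBPJdel arrays, 19.4, 23.8, 22.9 and 21.8 in N1c arrays, 22.1, 25.5, 27.1 and 27.0 in RBPJdel arrays and 25.1, 22.5, 28.3 and 25.1 in control arrays. Its N1c_RBPJdel arrays lay above all others. Jchain rose by 1.16 ± 0.14 (SE, n = 3 and 4) on the log2 scale, 2.23-fold (adjusted p = 0.00036), and by 1.36 against N1c and 1.15 against RBPJdel. Ms4a1, which encodes the B cell surface protein CD20, had 84.9, 50.4 and 44.2 in N1c_RBPJdel arrays, 31.4, 28.3, 28.6 and 28.8 in N1c arrays, 32.4, 34.0, 29.1 and 26.8 in RBPJdel arrays and 28.2, 30.0, 25.7 and 35.8 in control arrays. The N1c_RBPJdel arrays were again the 3 highest, with array 1 well above arrays 2 and 3. Ms4a1 rose by 0.95 ± 0.17 against control (adjusted p = 0.00512).

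Cd79a and Cd79b encode the paired signalling subunits of the B cell receptor and did not move alike. Cd79a had 69.9, 57.5 and 50.1 in N1c_RBPJdel arrays, 23.7, 26.0, 29.9 and 34.5 in N1c arrays, 32.6, 39.3, 33.0 and 28.8 in RBPJdel arrays and 29.5, 32.6, 34.3 and 36.3 in control arrays. No N1c_RBPJdel array overlapped with any other group, and Cd79a rose by 0.83 ± 0.14 against control (adjusted p = 0.00413) and by 1.05 against N1c. Cd79b had 378, 656 and 324 in N1c_RBPJdel arrays, 346, 298, 326 and 313 in N1c arrays, 482, 497, 417 and 435 in RBPJdel arrays and 402, 415, 371 and 322 in control arrays. It was high on N1c_RBPJdel array 2 alone, and arrays 1 and 3 lay within the range of the other groups. Its change against control was 0.20 ± 0.17 (adjusted p = 0.49, interval -0.17 to 0.57), and without array 2 it was -0.10.

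Cr2, the complement receptor CD21, had 55.0, 38.4 and 56.4 in N1c_RBPJdel arrays, 38.0, 36.2, 30.1 and 32.1 in N1c arrays, 39.4, 35.2, 35.2 and 32.0 in RBPJdel arrays and 37.0, 32.3, 34.9 and 36.5 in control arrays. Arrays 1 and 3 of N1c_RBPJdel were high and array 2 lay within the range of the RBPJdel arrays. Cr2 rose by 0.49 ± 0.13 against control (adjusted p = 0.0293) but was not called against RBPJdel. Ebf1 and Pax5 are transcription factors of B cell commitment. Ebf1 had 41.7, 34.4 and 50.1 in N1c_RBPJdel arrays, 29.3, 32.8, 25.4 and 33.7 in N1c arrays, 31.8, 34.9, 33.5 and 27.9 in RBPJdel arrays and 30.1, 31.0, 34.4 and 32.3 in control arrays. It rose by 0.47 ± 0.13 against N1c (adjusted p = 0.0332), and its change of 0.38 against control was not called. Pax5 had 86.0, 90.7 and 108 in N1c_RBPJdel arrays, 77.3, 74.5, 78.0 and 78.7 in N1c arrays, 77.2, 89.5, 72.4 and 76.9 in RBPJdel arrays and 83.1, 68.4, 78.4 and 76.6 in control arrays, with a change of 0.30 against control (adjusted p = 0.076). Fcer2a, the low-affinity IgE receptor CD23, changed by 0.33 and Blk, a Src-family kinase of B cells, by 0.01, and neither was called.

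Some B cell calls rested on a few arrays. Cr2 lost its call against control without N1c_RBPJdel 1 (change 0.41), N1c_RBPJdel 3 (0.39), control 2 (0.51), control 3 (0.45) or control 4 (0.48), and against N1c without N1c_RBPJdel 1 (0.46) or N1c_RBPJdel 3 (0.44). Ebf1 lost its call against N1c without N1c_RBPJdel 1 (0.46), N1c_RBPJdel 3 (0.33), N1c 1 (0.45), N1c 2 (0.51) or N1c 4 (0.38). Against RBPJdel, Cd79a lost its call without N1c_RBPJdel 1 (0.69), and Ms4a1 without N1c_RBPJdel 1 (0.63) or RBPJdel 3 (0.89).

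**Figure D3:**
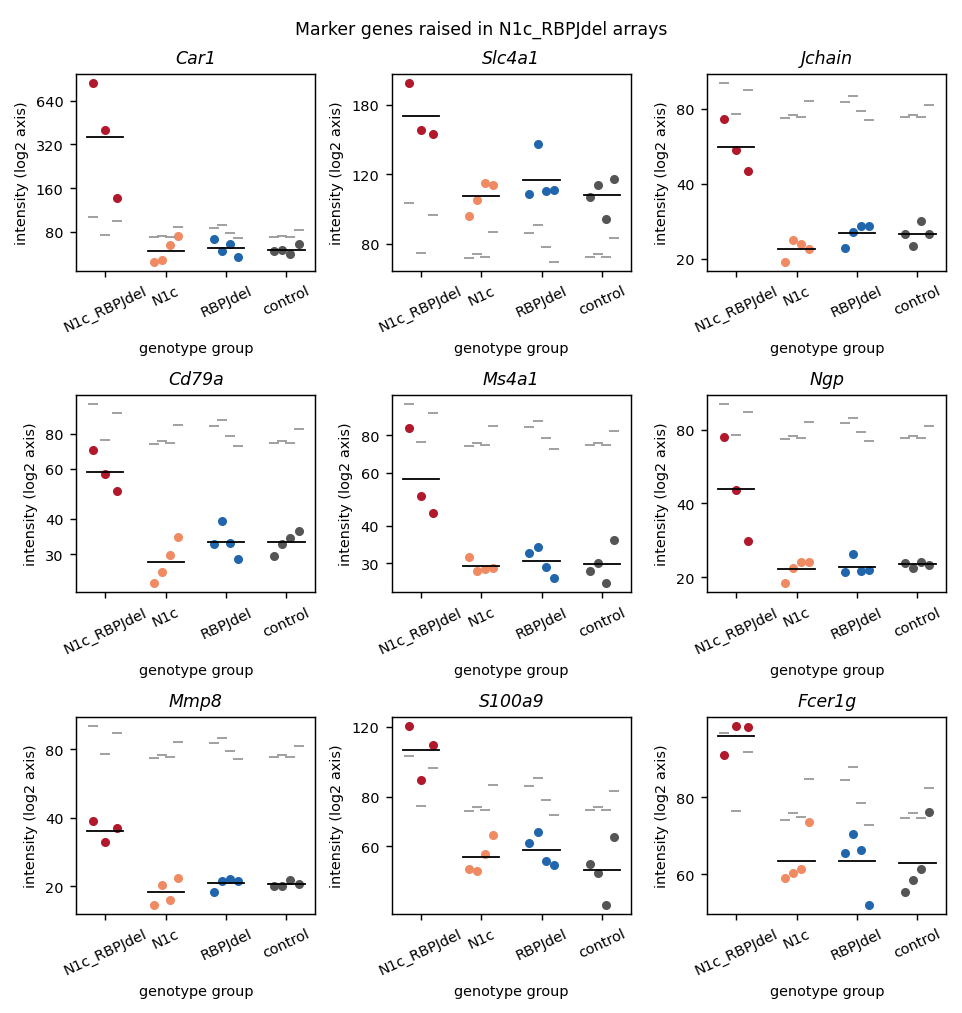
Intensity of 9 marker genes on each array, on log2 axes that differ between panels, by genotype group. Each dot is 1 array, the black line is the group's geometric mean, and a grey dash is the 95th percentile of olfactory receptor genes on the same array. In all 9 panels the 3 N1c_RBPJdel arrays lie above the other 12, and in the Jchain, Cd79a, Ms4a1, Ngp and Mmp8 panels every dot lies below its dash.

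The neutrophil genes that rose encode granule and cytosolic proteins. Ngp, a granule protein of the cathelicidin family, had 74.6, 45.5 and 28.1 in N1c_RBPJdel arrays, 19.0, 21.9, 23.1 and 23.1 in N1c arrays, 21.0, 24.9, 21.2 and 21.4 in RBPJdel arrays and 23.0, 21.8, 23.1 and 22.5 in control arrays. The N1c_RBPJdel arrays were the 3 highest, spread from 74.6 on array 1 to 28.1 on array 3, while the other 12 lay within 19.0 to 24.9. Ngp rose by 1.02 ± 0.21 against control (adjusted p = 0.0088). S100a9 and S100a8 form calprotectin, the main cytosolic protein complex of neutrophils. S100a9 had 121, 88.2 and 108 in N1c_RBPJdel arrays, 52.5, 52.1, 57.4 and 64.2 in N1c arrays, 61.4, 65.3, 55.1 and 54.0 in RBPJdel arrays and 54.2, 51.5, 42.8 and 63.3 in control arrays. Its lowest N1c_RBPJdel array was above the highest of the other 12, and S100a9 rose by 1.00 ± 0.14 against control (adjusted p = 0.00116). S100a8 had 33.4 to 40.1 in N1c_RBPJdel arrays, 24.4 to 30.8 in N1c arrays, 29.9 to 36.9 in RBPJdel arrays and 27.6 to 33.4 in control arrays, and its change of 0.25 was not called (adjusted p = 0.174).

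Mmp8, neutrophil collagenase, had 38.5, 31.2 and 35.9 in N1c_RBPJdel arrays, 16.6, 20.3, 17.5 and 21.7 in N1c arrays, 18.8, 21.0, 21.5 and 21.0 in RBPJdel arrays and 20.1, 20.0, 21.2 and 20.5 in control arrays. The N1c_RBPJdel arrays did not overlap with the other 12, and Mmp8 rose by 0.78 ± 0.11 against control (adjusted p = 0.0013). Mmp9, gelatinase B, which is also made by activated T cells, had 251, 291 and 192 in N1c_RBPJdel arrays, 154, 142, 153 and 139 in N1c arrays, 122, 106, 90.1 and 175 in RBPJdel arrays and 160.3, 136, 171 and 134 in control arrays. The N1c_RBPJdel arrays were the 3 highest, and RBPJdel 4 came closest to them. Mmp9 rose by 0.69 ± 0.18 against control (adjusted p = 0.0272) and by 1.01 against RBPJdel. Lcn2, the siderophore-binding lipocalin, had 101, 102 and 81.2 in N1c_RBPJdel arrays, 68.0, 61.7, 61.5 and 68.0 in N1c arrays, 63.8, 70.7, 66.9 and 64.8 in RBPJdel arrays and 68.2, 66.1, 64.1 and 68.0 in control arrays. The 3 N1c_RBPJdel arrays lay above the rest, and Lcn2 rose by 0.50 ± 0.10 (adjusted p = 0.00717).

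The remaining 4 neutrophil genes were not called in any comparison. Mpo, the peroxidase of primary granules, had 100.2, 89.2 and 94.4 in N1c_RBPJdel arrays, 75.4, 82.7, 83.2 and 96.5 in N1c arrays, 77.0, 94.1, 82.8 and 82.7 in RBPJdel arrays and 81.8, 81.9, 82.1 and 60.3 in control arrays. N1c 5 lay above arrays 2 and 3 of N1c_RBPJdel, and the change of Mpo against control was 0.32. Elane, neutrophil elastase, Ltf, lactoferrin, and Camp, cathelicidin, changed by 0.15, 0.32 and 0.27. Ltf and Camp are proteins of later-formed granules, as are Lcn2 and Ngp, which rose.

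The call of Mmp9 against control was lost without N1c_RBPJdel 1 (0.66), N1c_RBPJdel 2 (0.56), control 2 (0.72) or control 3 (0.65). Against N1c it was lost without N1c_RBPJdel 1 (0.69), N1c_RBPJdel 2 (0.58) or N1c 2 (0.70), and against RBPJdel without N1c_RBPJdel 1 (0.98). The change of Ngp against control was 0.66 without N1c_RBPJdel 1 and stayed called. Against RBPJdel, Ngp lost its call without N1c_RBPJdel 1 (0.70), RBPJdel 1 (1.03) or RBPJdel 3 (1.03), and Lcn2 without N1c_RBPJdel 1 (0.45), RBPJdel 1 (0.48) or RBPJdel 3 (0.50).

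Granule genes are known to be driven by factors of the C/EBP family during neutrophil maturation, and the promoters of 4 neutrophil genes that rose are shown because they share its motif. The sequences are the 250 bases before the start of the gene, 5′ to 3′ on the gene's strand, from RefSeq (GRCm38.p6), with matches to TTGCNNAA or its reverse complement TTNNGCAA in capitals.
Ngp (chr9:110419558-110419807, plus strand): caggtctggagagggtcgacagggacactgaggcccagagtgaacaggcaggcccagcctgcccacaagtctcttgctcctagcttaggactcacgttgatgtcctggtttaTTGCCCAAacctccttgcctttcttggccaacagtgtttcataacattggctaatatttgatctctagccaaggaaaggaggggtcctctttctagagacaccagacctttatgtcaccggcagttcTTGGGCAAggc
Mmp8 (chr9:7558179-7558428, plus strand): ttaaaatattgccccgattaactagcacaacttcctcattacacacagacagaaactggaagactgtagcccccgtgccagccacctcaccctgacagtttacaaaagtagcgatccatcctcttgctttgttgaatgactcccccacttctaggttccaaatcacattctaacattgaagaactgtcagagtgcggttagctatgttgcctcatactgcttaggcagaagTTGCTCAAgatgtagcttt
Lcn2 (chr2:32387740-32387989, minus strand): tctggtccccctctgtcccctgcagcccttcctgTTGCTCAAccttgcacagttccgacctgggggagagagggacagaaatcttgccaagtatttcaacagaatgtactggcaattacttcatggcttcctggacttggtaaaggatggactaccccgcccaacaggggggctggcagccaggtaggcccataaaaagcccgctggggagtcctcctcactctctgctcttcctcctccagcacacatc
S100a9 (chr3:90695722-90695971, minus strand): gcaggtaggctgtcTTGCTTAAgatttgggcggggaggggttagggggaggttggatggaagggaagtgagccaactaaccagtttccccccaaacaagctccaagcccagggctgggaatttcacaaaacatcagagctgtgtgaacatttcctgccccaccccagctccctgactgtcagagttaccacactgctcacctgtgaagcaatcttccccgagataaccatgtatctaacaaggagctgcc
The matches begin 138 and 11 bases before the start of Ngp (positions -138 and -11), at -19 in Mmp8, at -216 in Lcn2 and at -236 in S100a9. None of these 5 matches overlapped a match of the other motifs searched. On either strand the motif was found in 5 of 9 neutrophil markers with a promoter entry, in 7 of 26 markers with one, and in 9.56% of all 32851 promoter entries. The fifth of these neutrophil markers was Ltf, which was not called. The PU.1 motif GAGGAAG was found likewise in 5 of the 9 neutrophil markers (Lcn2 and Mmp8, which rose, and Elane, Mpo and S100a8, which were not called), in 6 of the 26 markers and in 10.6% of all entries, the GATA1 motif AGATAA in 4 and in 9.99%, the palindromic EBF1 motif in 1 and in 0.779%, and the RBPJ motif TGGGAA in 6 and in 21.6%. A match describes letters in a window and is no evidence of binding. Car1, Slc4a1, Mmp9, Ms4a1, Cd79b, Blk, Spi1, Csf1r and Tyrobp had no entry.

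Among the erythroid genes, Car1 and Slc4a1 rose in N1c_RBPJdel and Tfrc fell, while Gata1, Klf1 and Epor were not called. Car1, carbonic anhydrase 1, an abundant enzyme of red cells, had 852, 400.0 and 137 in N1c_RBPJdel arrays, 49.9, 51.4, 64.4 and 75.3 in N1c arrays, 71.8, 58.9, 65.9 and 54.0 in RBPJdel arrays and 58.8, 60.1, 56.6 and 65.9 in control arrays. The 3 N1c_RBPJdel arrays stood above all others but differed widely among themselves, and array 3 was the lowest of them. Car1 rose by 2.58 ± 0.37 against control, 5.98-fold (adjusted p = 0.0018), which was the largest rise of all 19752 genes in that comparison. Without N1c_RBPJdel 1 the change was 1.96, and without N1c_RBPJdel 3 it was 3.28. Against N1c it was 2.60 (1.98 without N1c_RBPJdel 1 and 3.30 without N1c_RBPJdel 3), and against RBPJdel 2.53 (1.91 and 3.23).

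Slc4a1, the band 3 anion exchanger of the red cell membrane, had 205, 155 and 152 in N1c_RBPJdel arrays, 93.9, 103, 114 and 113 in N1c arrays, 107, 144, 109 and 109 in RBPJdel arrays and 105, 113, 92.6 and 117 in control arrays. The N1c_RBPJdel arrays were the 3 highest, with RBPJdel 2 next. Slc4a1 rose by 0.67 ± 0.13 against control (adjusted p = 0.00812) and by 0.54 against RBPJdel (adjusted p = 0.043). The call against RBPJdel was lost without any of 8 arrays. Leaving out N1c_RBPJdel 1 gave 0.40, RBPJdel 1 0.50, RBPJdel 3 0.51 and RBPJdel 4 0.51, and leaving out N1c 2, N1c 4, control 2 or control 3 left it at 0.54 with a larger p.

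Tfrc encodes the transferrin receptor, which brings iron into erythroid precursors and also into dividing T cells. It had 182, 139 and 184 in N1c_RBPJdel arrays, 325, 431, 439 and 306 in N1c arrays, 189, 224, 229 and 174 in RBPJdel arrays and 281, 275, 249 and 306 in control arrays. Every N1c_RBPJdel array lay below every N1c and control array, while N1c_RBPJdel and RBPJdel arrays overlapped. Tfrc fell by 0.73 ± 0.15 on the log2 scale against control, 1.66-fold lower (adjusted p = 0.00871), and fell by 1.15 ± 0.15 against N1c (adjusted p = 0.000117). Its difference from RBPJdel was -0.28 (interval -0.59 to 0.03) and was not called. The order of the groups was N1c highest, then control, then RBPJdel and N1c_RBPJdel, and no step between neighbours in that order passed the test.

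Gata1, the master transcription factor of erythroid cells, had 279.6, 300.1 and 191 in N1c_RBPJdel arrays, 315, 259, 258 and 180.4 in N1c arrays, 456, 382, 369 and 288 in RBPJdel arrays and 333, 347, 287 and 286 in control arrays. Array 3 of N1c_RBPJdel and N1c 5 were the lowest and RBPJdel 1 the highest. The change in N1c_RBPJdel was -0.31 ± 0.19 against control and -0.55 ± 0.19 against RBPJdel, neither called (adjusted p = 0.312 and 0.112). Klf1, an erythroid transcription factor, changed by 0.45 against control (adjusted p = 0.0763), with 90.3, 60.2 and 53.1 in N1c_RBPJdel arrays, against 53.1, 49.6, 53.9 and 38.6 in control arrays. Epor, the erythropoietin receptor, changed by 0.07. So the 6 erythroid genes went 3 ways in N1c_RBPJdel against control, with 2 higher, 1 lower and 3 not called.

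**Figure D4:**
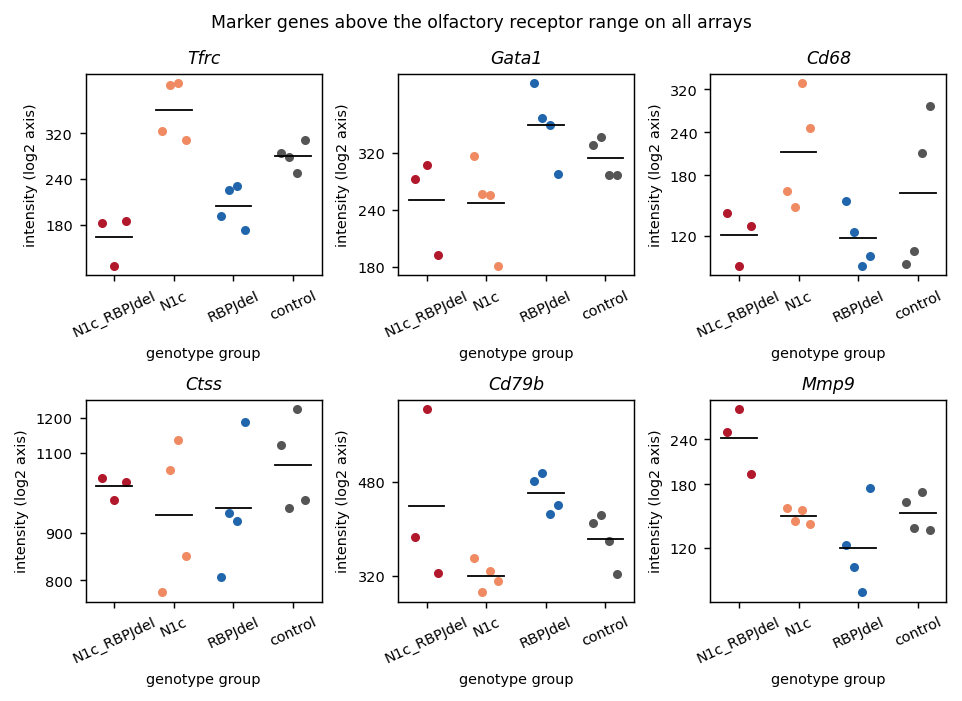
Intensity of 6 marker genes that lay above the 95th percentile of olfactory receptor genes on all 15 arrays, by genotype group, on log2 axes that differ between panels. Each dot is 1 array and the black line is the group's geometric mean. Tfrc is low on the 3 N1c_RBPJdel arrays (139 to 184) and high on the 4 N1c arrays (306 to 439), Mmp9 is high on the N1c_RBPJdel arrays, and Cd79b is high on 1 of them.

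Of the myeloid genes, Fcer1g and Spi1 rose in N1c_RBPJdel against control, Lyz2 rose against N1c, and the other 7 were not called in any comparison. Fcer1g, the shared gamma chain of Fc receptors, which some T cells also make, had 93.6, 105 and 104 in N1c_RBPJdel arrays, 59.1, 60.3, 61.1 and 72.8 in N1c arrays, 64.9, 69.7, 65.6 and 53.5 in RBPJdel arrays and 56.2, 58.8, 61.1 and 75.7 in control arrays. The N1c_RBPJdel arrays were the 3 highest and close to each other, and Fcer1g rose by 0.69 ± 0.12 (adjusted p = 0.00467). Spi1, which encodes PU.1, a transcription factor of myeloid and B cells, had 91.3, 62.8 and 72.6 in N1c_RBPJdel arrays, 47.2, 53.6, 54.3 and 54.3 in N1c arrays, 52.0, 56.4, 54.3 and 50.9 in RBPJdel arrays and 56.3, 52.3, 43.5 and 54.3 in control arrays. The N1c_RBPJdel arrays lay above the other 12, array 1 most, and Spi1 rose by 0.54 ± 0.12 against control (adjusted p = 0.0145).

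Lyz2, lysozyme of macrophages and neutrophils, had 140.2, 54.9 and 117 in N1c_RBPJdel arrays, 56.0, 41.6, 57.6 and 50.5 in N1c arrays, 57.0, 59.7, 51.6 and 47.3 in RBPJdel arrays and 57.3, 45.5, 69.7 and 71.7 in control arrays. It was high on N1c_RBPJdel arrays 1 and 3, while array 2 lay within the range of the others. Lyz2 rose by 0.92 ± 0.24 against N1c (adjusted p = 0.0235), and its change of 0.68 against control was not called. Its call was lost without N1c_RBPJdel 1 (0.65), N1c_RBPJdel 3 (0.78) or N1c 2 (0.82). Spi1 lost its call against control without N1c_RBPJdel 1 (0.39) and against N1c without N1c_RBPJdel 1 (0.37) or N1c 1 (0.47). Against RBPJdel, where its adjusted p was 0.046, Spi1 lost its call without any of 11 arrays, with changes of 0.34 without N1c_RBPJdel 1 to 0.51 without RBPJdel 2.

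Ctss, a lysosomal protease of antigen-presenting cells that T cells express as well, had 1034, 978 and 1023 in N1c_RBPJdel arrays, 776, 1054, 1134 and 849 in N1c arrays, 806, 947, 927 and 1188 in RBPJdel arrays and 1121, 958, 1227 and 978 in control arrays. All 4 groups overlapped, and its change in N1c_RBPJdel against control was -0.07. Cd68, a lysosomal glycoprotein of macrophages, had 139.7, 98.2 and 129 in N1c_RBPJdel arrays, 162, 145, 334 and 247 in N1c arrays, 152, 124, 98.3 and 105 in RBPJdel arrays and 99.7, 108, 209 and 287 in control arrays. It was high on the arrays numbered 4 and 5 of N1c and of control and lower on the other arrays of these groups, on all RBPJdel arrays and on all N1c_RBPJdel arrays. Its change in N1c_RBPJdel was -0.40 ± 0.33 against control and -0.80 ± 0.33 against N1c, neither called. Cebpb, a C/EBP factor of macrophages and activated lymphocytes, changed by -0.06 against control. Tyrobp, the adaptor DAP12, changed by 0.50 (adjusted p = 0.082) and Csf1r, the receptor of macrophage colony-stimulating factor, by 0.26.

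Itgam and Itgax encode CD11b and CD11c, by which cells were gated out of the sort. Itgam had 52.1, 66.2 and 52.8 in N1c_RBPJdel arrays, 53.7, 54.8, 55.6 and 70.3 in N1c arrays, 49.0, 57.5, 56.5 and 58.1 in RBPJdel arrays and 47.4, 49.0, 55.7 and 54.3 in control arrays. Itgax had 54.3, 56.4 and 57.4 in N1c_RBPJdel arrays, 48.6, 51.0, 52.3 and 51.8 in N1c arrays, 55.5, 58.6, 51.5 and 51.7 in RBPJdel arrays and 51.8, 51.8, 52.8 and 45.7 in control arrays. For both genes the N1c_RBPJdel arrays lay within the range of the other 12 and below the olfactory receptor mark on every array. For Itgax they lay above every control and every N1c array, and overlapped with RBPJdel arrays only. Of all 19752 genes, 1799 lay above control and 1571 above N1c in this way. Against control, Itgam changed by 0.14 ± 0.12 and Itgax by 0.15 ± 0.09, neither called.

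Neither single change of genotype moved the markers past the test. In N1c against control limma called 0 of 35, with 1 at an unadjusted p under 0.05 and 1.65% of all genes called in either direction. Array weights called 1, which was Tfrc, and 3.71% of all genes. In RBPJdel against control limma called 0 of 35, with 1 at an unadjusted p under 0.05 and 0.111% of all genes called, and no alternative called any. The N1c and control arrays did not overlap for 1 marker, Tfrc, against 5.73% of all genes. The RBPJdel and control arrays did not overlap for 2, Cd79b and Tfrc, against 5.89% of all genes. Tfrc changed by 0.42 ± 0.14 in N1c against control (adjusted p = 0.207) and by -0.45 ± 0.14 in RBPJdel against control (adjusted p = 0.494), and Cd79b by 0.28 ± 0.16 in RBPJdel against control (adjusted p = 0.806). Between arrays of the same number, Tfrc in N1c minus control was 0.62 for number 2, 0.82 for number 4 and 0.00 for number 5. The median log2 change of the 35 was -0.01 in N1c against control and 0.04 in RBPJdel against control, against -0.01 and 0.03 over all genes.

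The interaction asks whether the N1c effect differs with and without Rbpj, that is, N1c_RBPJdel minus RBPJdel set against N1c minus control. It was called and positive for 4 of the 35 markers and called and negative for none, where 0.319% of all genes were positive and 0.521% negative. For Car1 it was 2.55 ± 0.51 (adjusted p = 0.0204), from 2.53 in N1c_RBPJdel against RBPJdel and -0.02 in N1c against control. The call of Car1 was lost without RBPJdel 2 (2.52), and its value was 1.93 without N1c_RBPJdel 1 and 3.25 without N1c_RBPJdel 3. For Jchain it was 1.34 ± 0.19 (adjusted p = 0.00163), for Cd79a 1.05 ± 0.20 (adjusted p = 0.0126) and for Mmp8 0.89 ± 0.15 (adjusted p = 0.006). For Tfrc it was -0.70 ± 0.20 and not called (adjusted p = 0.127). Without N1c_RBPJdel 2 or N1c_RBPJdel 3 the interaction was called for 8 markers in each case, where 2.42% and 0.851% of all genes were called. With the replicate block over all groups 11 markers were called, and with each array centred on its olfactory receptor median 2 were. In these settings 3.2% and 0.602% of all genes were called.

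The 3 N1c_RBPJdel arrays did not carry the markers equally. Relative to the mean of the other 12 arrays, the median log2 deviation of the 35 was 0.57 on array 1, 0.23 on array 2 and 0.22 on array 3. Array 1 was the highest of the 3 for 21 markers, array 2 for 8 and array 3 for 6, and this was not counted over all genes. For the olfactory receptor genes the median deviations were 0.47, 0.01 and 0.25, and over all genes -0.02, -0.01 and 0.02. Among the 35 the deviation ran from -0.60 for Tfrc to 3.81 for Car1 on array 1, from -0.99 for Tfrc to 2.72 for Car1 on array 2, and from -0.68 for Gata1 to 1.18 for Car1 on array 3. Lyz2 deviated by 1.36, 0.00 and 1.09 on arrays 1, 2 and 3.

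Summed over its 9 genes, the B cell list reached 903, 1083 and 772 on the N1c_RBPJdel arrays, against 614 to 658 in N1c, 745 to 870 in RBPJdel and 661 to 729 in control arrays. Array 3 lay within the RBPJdel range, and array 2 carried 656 of its sum in Cd79b. The neutrophil list summed to 970.0, 892 and 781 on the N1c_RBPJdel arrays, against 569 to 668 in N1c, 555 to 637 in RBPJdel and 577 to 621 in control arrays, and the N1c_RBPJdel arrays lay above all others. The erythroid list summed to 1694, 1143 and 806 on the N1c_RBPJdel arrays, against 827 to 1018 in N1c, 771 to 986 in RBPJdel and 824 to 939.8 in control arrays. Arrays 1 and 2 of N1c_RBPJdel were above all others, with 852 and 400.0 of their sums in Car1, and array 3 was not. The myeloid list summed to 1690 to 1902 in N1c_RBPJdel, 1446 to 2011 in N1c, 1477 to 1815 in RBPJdel and 1557 to 1971 in control arrays, and all groups overlapped. Ctss gave 978 to 1034 of that sum in N1c_RBPJdel arrays. Without the 4 myeloid genes also known from T cells (Ctss, Cd68, Cebpb and Fcer1g) the sum was 408 to 537 in N1c_RBPJdel arrays, against 308 to 401 in the other 12. The N1c_RBPJdel arrays lay above all others, N1c_RBPJdel 2 (408) just above RBPJdel 2 (401). No list sum was taken with olfactory receptor centring. Without Mmp9 the neutrophil sum was 589 to 719 in N1c_RBPJdel arrays, against 427 to 529 in the other 12. Without Tfrc the erythroid sum was 1512, 1004 and 622 in N1c_RBPJdel arrays, against 521 to 775 in the other 12.

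**Figure D5:**
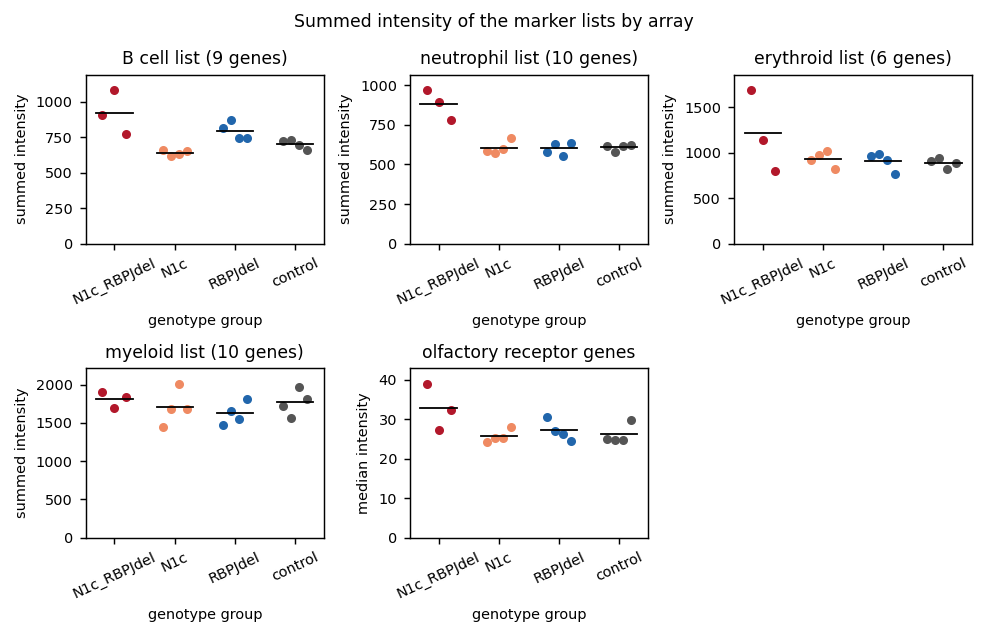
Summed intensity of the 4 marker lists on each array and, in the last panel, the median intensity of 1015 olfactory receptor genes, by genotype group. Each dot is 1 array and the black line is the group mean. The neutrophil sums of the N1c_RBPJdel arrays (781 to 970.0) lie above those of the other 12 (555 to 668), and the myeloid sums of the 4 groups overlap. Without 4 myeloid genes also known from T cells, which are included here, the sums of the N1c_RBPJdel arrays (408 to 537) did not overlap those of the other 12 (308 to 401).

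Likeness across arrays was taken over log2 intensities, and only the nearest genes of a marker are named. Correlations were taken with 3139 genes with a log2 range of at least 1, which a gene could reach through the N1c_RBPJdel arrays alone. Predicted genes, antibody and T cell receptor segments, olfactory and vomeronasal receptors, small RNAs and a few other names were left out of the ranking. Among the rest, the gene most like Car1 over the 15 arrays was the neutrophil gene Ngp (Pearson r = 0.976). Next came Ms4a1 (0.946), the class II chain gene H2-Ea (0.942), Jchain (0.937) and Phlda2 (0.936). After the group means were taken out, r was 0.932 for Car1 and Ngp, 0.766 for Car1 and Ms4a1 and 0.690 for Car1 and Jchain. The log2 SD of Car1 was 1.32 in N1c_RBPJdel arrays, against 0.09 to 0.28 in the other groups. For Ngp it was 0.71, against 0.04 to 0.13. These r values of Car1 therefore rest mostly on the 3 N1c_RBPJdel arrays. Mmp8 was most like Jchain (0.951, and 0.495 without the group means), S100a9 most like the myeloid receptor gene Clec12a (0.964 and 0.860) and Lcn2 most like H2-Ea (0.960 and 0.786). The nearest genes of Tfrc were Rras2 (0.931), Rnf19a (0.929) and Lrba (0.909). Jchain was most like Mmp8 and Ngp most like Car1. Ms4a1 was most like Klra17 (0.960, then Adipoq, 0.954), Spi1 most like Ang2 (0.944) and Slc4a1 most like Sdr16c6 (0.941). Cd79a and Fcer1g were most like Wfdc17 (0.923 and 0.928) and Lyz2 most like Clec9a (0.919). Cr2 was most like Kcnt2 (0.903), Ebf1 most like Itga1 (0.874) and Mmp9 most like Klrg1 (0.869). The nearest genes from Klra17 to Klrg1 are on none of the marker lists. The arrays of a group share genotype and sorter, so these values describe likeness over 15 arrays only.

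Further markers of the same cell types, also chosen with earlier results of these data known, were counted in N1c_RBPJdel against control. Of 18 other B cell genes 9 rose, of 20 other neutrophil genes 5, of 21 other erythroid genes 1 and of 24 other myeloid genes 2, and none fell. These were 50%, 25%, 4.76% and 8.33% of the 4 lists, against 3.77% of all genes, 5.45% of the genes dimmer than the median and 12% of the olfactory receptor genes. None of 7 platelet and megakaryocyte genes was called. Btk, a kinase of the B cell receptor pathway, had 45.8, 44.1 and 37.3 in N1c_RBPJdel arrays, 26.3, 28.0, 26.7 and 31.1 in N1c arrays, 26.0, 32.0, 23.3 and 30.6 in RBPJdel arrays and 27.0, 24.9, 27.8 and 26.0 in control arrays. It rose by 0.68 ± 0.12 against control (adjusted p = 0.00405), and its N1c_RBPJdel arrays were the 3 highest. Tnfrsf13c, the receptor for the B cell survival factor BAFF, rose by 0.60 ± 0.11 against control and Cd74, the invariant chain of antigen presentation, by 1.01 ± 0.25. Cd24a, a surface glycoprotein of B cells and erythroid precursors, rose by 1.02 ± 0.24. Cd22, an inhibitory lectin receptor of B cells, behaved unlike the markers, with 115 to 195 in N1c_RBPJdel arrays, against 1095 to 1814 in N1c and 72.6 to 95.3 in control arrays.

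Among the other neutrophil genes, Pglyrp1, a bactericidal granule protein, had 1547, 1595 and 1101 in N1c_RBPJdel arrays, 524, 476, 576 and 646 in N1c arrays, 930.4, 783, 1007 and 1195 in RBPJdel arrays and 788, 782, 611 and 759.8 in control arrays. It rose by 0.93 ± 0.16 against control (adjusted p = 0.00361) and 1.34 against N1c, but N1c_RBPJdel arrays overlapped with RBPJdel arrays. Chil3, a chitinase-like protein, rose by 0.60 and Ctsg, cathepsin G of the primary granules, by 0.58 against control. Rhag, a component of the Rh complex of the red cell membrane, was the erythroid gene called, at 0.58 ± 0.13. Ccr2, a chemokine receptor of monocytes and of activated T cells, rose by 1.24 ± 0.19, and C1qb, a complement subunit of macrophages, by 0.59. Cybb, a subunit of the phagocyte oxidase, rose by 0.86 ± 0.17 in N1c against control (adjusted p = 0.00978) and was not called in N1c_RBPJdel against control. Cd8a and Cd8b1, which encode the CD8 chains of the exclusion gate, were not called in any of the 6 comparisons. The part that RNA of other cells, dim signal or the sorter had in these results was not tested.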

How the data were processed

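RNA of sorted cells was measured on 15 arrays. The authors deposited 1 table of linear intensities per transcript cluster, and RMA in Affymetrix Power Tools is named per the submitters' processing notes (versions not given in the sources used here). Of 24922 features 21425 name 1 gene, 1399 several and 2098 none, and only the first kind was used. The genes numbered 19752, of which 921 had several features. Values ran from 5.61 to 18030, array medians from 107 to 117, and correlations between arrays from 0.957 to 0.996.

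The intensities are not on a log scale, so log2 was taken here. Group means over all 15 arrays were fitted with limma 3.58.1 in R 4.3.3 (lmFit, eBayes, 11 residual degrees of freedom), with Benjamini-Hochberg adjustment over all genes. The procedure was tested on simulated data. No file gives a scan date or a slide, so batches were not modelled, and the number of arrays limits the precision.

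Replicate numbers recur between groups. Deviations of same-numbered arrays from their group means correlated at 0.417, 0.341 and 0.497 between N1c and control (numbers 2, 4 and 5), which was taken as pairing, from the data and not from the labels. Between RBPJdel and control they correlated at 0.166, 0.0711 and 0.417, and between N1c_RBPJdel and RBPJdel at 0.209, -0.0467 and 0.0541, which was not. Between N1c and RBPJdel they correlated at 0.1115, 0.0815 and 0.457 (numbers 1, 2 and 4). Between N1c_RBPJdel and control the values were 0.237 and -0.0475 (numbers 2 and 3). Between N1c_RBPJdel and N1c they were -0.120 and 0.0639 (numbers 1 and 2). Arrays of number 4 thus correlated at 0.341 to 0.457 among N1c, RBPJdel and control, though RBPJdel and control were not taken as paired. The main fit held no term for pairs. Some N1c and control arrays of unlike number correlated nearly as well. These were N1c 1 with control 2 (0.371), N1c 2 with control 3 (0.350) and N1c 1 with control 3 (0.318). The other unlike pairs of N1c and control ran from -0.426 to 0.109. For the low numbers, same-numbered and unlike arrays were therefore not told apart.

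The marker genes and lists were chosen with earlier results of these data known. Values on every array are given for each marker called in any comparison, for the 2 brightest markers and the widest-ranging marker of each list and for genes of the sort gate, and up to 5 called genes of each further list are named. Alternatives covered normalization, an added 16 before the log, brighter genes only, the choice of transcript cluster, array weights, eBayes with trend, the groups compared only, replicate blocks and leaving out each array. Cyclic loess, olfactory receptor centring and N1c_RBPJdel 2 alone were added after the data were seen.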

Additional observations from a re-analysis of the deposited data

Results flagged for a closer look

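The effect of N1c differed with and without deletion of Rbpj for 4 markers by the interaction term of limma with Benjamini-Hochberg adjustment. With the deletion the effect was larger by 2.55 for Car1 (adjusted p = 0.0204), by 1.34 for Jchain (adjusted p = 0.00163), by 1.05 for Cd79a (adjusted p = 0.0126) and by 0.89 for Mmp8 (adjusted p = 0.006), all on the log2 scale. The 3 N1c_RBPJdel arrays were above the other 12 for each of the 4, and genotype and sorter cannot be told apart in them.

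In 12 of 105 groups of 4 arrays examined, 1 array stood apart from the other 3 by Dixon's ratio (critical value 0.829), which chance gives in about 1 of 20 groups. RBPJdel 2 was that array for 5 markers, always as the highest, with 143.5 for Slc4a1, 104.8 for Tyrobp, 76.3 for Blk, 64.2 for Csf1r and 24.9 for Ngp. N1c 5 was the highest of its group for Fcer1g (72.8) and Itgam (70.3), and N1c 1 was the highest for Ms4a1 (31.4) and the lowest for Spi1 (47.2). Control 5 was the lowest of its group for Mpo (60.3) and Itgax (45.7), and RBPJdel 1 the lowest for Itgam (49.0).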

How the results depend on the processing

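Of 46 marker calls over the 4 comparisons that had any, 15 were kept under every alternative run for them (at most 29, fewer for dim genes, which the restriction to brighter genes does not test, and for the interaction), 14 were lost under 1 or 2 and 17 under 3 or more, and no called change turned its direction. In N1c_RBPJdel against control, Cd79a, Jchain, Mmp8, S100a9, Car1 and Tfrc were never lost, and Car1 ranged from 1.96 to 3.28. Counts of called markers moved as follows, and their causes were not tested unless given. Array weights called 1 in N1c against control, against 0, and 3.71% of all genes. Restriction to brighter genes, which left 8 markers to test, called 3 in N1c_RBPJdel against control, 3 against N1c, 2 against RBPJdel and 0 in the interaction, against 14, 16, 12 and 4. A fit of the groups compared only, with fewer arrays, called 8 against control and 6 against RBPJdel, and with a replicate block as well it called 7 against N1c. Over all genes these fits called 2.06%, 0.496% and 1.86%. Centring on olfactory receptor genes called 9 against control, 10 against N1c and 2 in the interaction. Over all genes it called 22.6%, 27.1% and 0.602%. N1c_RBPJdel 2 alone, which is assumed to vary like the other groups, called 5 against RBPJdel. The interaction was called for 7 markers after quantile normalization, 9 with array weights and 11 with the replicate block over all groups. It was called for 0.957%, 1.3% and 3.2% of all genes in these settings. Leaving out 1 array gave 11 to 16 markers against control, 11 to 19 against N1c, 5 to 15 against RBPJdel and 3 to 8 in the interaction. Over all genes these fits called 2.68% to 15.6%, 4.57% to 15.5%, 0.385% to 9.57% and 0.511% to 2.42%. The replicate block called 0 markers in N1c against control, where the numbers were taken as pairs, and 494 of all genes, against 326 without it. Uncalled changes that turned sign were Cd79b in N1c_RBPJdel against control, at -0.12 with olfactory receptor centring and -0.10 without N1c_RBPJdel 2 (leaving out 1 array gave up to 0.41), Lyz2 there, at -0.13 with N1c_RBPJdel 2 alone, and Fcer2a against N1c, at -0.03 with that centring.

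Over all genes, N1c_RBPJdel against control had 1757 calls, against 406 with the groups compared only, 732 with N1c_RBPJdel 2 alone, 1075 after cyclic loess, 1169 after quantile normalization, 3767 with the replicate block and 4471 with olfactory receptor centring. Against N1c 1823 compared with 368 to 5362, and against RBPJdel 452 with 98 to 2107, over the same alternatives and the block of the groups compared. The interaction had 166, against 257 with array weights and 632 with the block. N1c against control had 326, against 733 with array weights and 141 with olfactory receptor centring. RBPJdel against control had 22, against 189 with array weights, 45 with the block of the groups compared and 14 with that centring. Leaving out 1 array gave 530 to 3088 calls in N1c_RBPJdel against control, 903 to 3058 against N1c, 76 to 1890 against RBPJdel and 101 to 478 in the interaction. The 16 list sums moved by less than 1 SD under quantile normalization and under centring on the array median. The mean of transcript clusters could not move them, because each marker had 1 feature naming it alone. Without 6 markers also known from T cells the myeloid sums of N1c_RBPJdel arrays (408 to 537) no longer overlapped those of the other 12 (308 to 401).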

Other observations

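Further genes of the same cell types were called against N1c and not against control. Retnlg, a resistin-like protein of neutrophils, rose by 0.62 and Cd177, a neutrophil surface glycoprotein, by 0.36 in N1c_RBPJdel against N1c. Rhd and Kel, blood group proteins of the red cell membrane, rose by 0.42 and 0.39, and Trim10, an erythroid protein, by 0.40. Ly86, which encodes the MD-1 partner of the receptor RP105 on B cells and macrophages, rose by 0.74. Against control their changes were 0.48 for Retnlg, 0.30 for Cd177, 0.28 for Rhd, 0.26 for Kel, 0.37 for Trim10 and 0.51 for Ly86, none called.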
